A study of Mus musculus with 59 samples.

Results

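Small nucleolar RNAs and small Cajal body RNAs were taken from the RNA count tables of mouse embryonic stem (mES) cells by gene symbol: Snora names (H/ACA box class), Snord names (C/D box class) and Scarna names (Cajal body class). The rule found 147 of the 39017 genes in the tables: 41 H/ACA, 97 C/D and 9 Cajal body RNA genes. Genes listed only under Gm names were not taken. The symbol Snora43 stands for 2 identifiers, and the longer of them, with an exon width of 2465 bases, was kept out of class sums and levels, which left 40 H/ACA genes there. It stayed in the tests, where counts and medians of H/ACA genes include it by its name, although its width is unlike that of the class. Of the members, 139 could be placed on the mouse genome (GRCm38.p6, the same assembly as mm10) by their RefSeq span and 8 could not. The RefSeq span differed from the exon width of the count tables in 109 of these 139, by over 20 bases in 28, and levels per kb use the width of the count tables.

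The members were followed in 35 libraries of ribosomal-RNA-depleted total RNA and in 24 chromatin immunoprecipitation (ChIP) libraries of a 129 x C57Bl6 hybrid mES cell line. The first RNA set held cells labelled DGCR8 Flox/Flox with Rosa26:CRE (12 libraries) and cells labelled Drosha Flox/Flox (11 libraries, with no Cre named in that label), untreated or given 0.5 µM 4-hydroxytamoxifen (4OHT), at 24, 48 and 96 h. Each group had 2 libraries, except the Drosha 4OHT group at 96 h, which had 1. The second RNA set held 2 parental libraries at 37 °C and 2 after 1 h at 42 °C, and 4 Mettl3 knockout lines (1d1, 3xU, 1d2 and 2c4d) at each temperature, and every cell of this set, the parental ones included, carried Rosa26:BirA and DGCR8 FLAG/Avi. The ChIP precipitates came from cells with Rosa26:BirA and a FLAG/Avi tag on DGCR8, DROSHA, DICER or METTL3, whose biotinylated protein was pulled down on streptavidin beads without an antibody. A DGCR8 precipitate also came from Mettl3 knockout cells, and DGCR8 and METTL3 were also precipitated after 1 h at 42 °C. An input labelled parental, whose title names no tag, served for both Drosha and Dicer. Chromatin was crosslinked with formaldehyde (FA) or also with disuccinimidyl glutarate (DSG), a crosslinker of longer reach. Groups follow the sample titles, with which other labels disagree in the floxed, METTL3 and heat ChIP sets. The labels do not say whether replicates were separate cultures, so a p-value measures only the spread between these libraries, which may be technical. One DGCR8 ChIP column was read as the FA precipitate because its name carries neither DSG nor input.

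C/D box RNAs guide 2'-O-methylation and H/ACA box RNAs guide pseudouridylation of ribosomal RNA, while Cajal body RNAs guide the same changes in spliceosomal RNAs. In mammals most are cut from introns of host genes, many of which encode ribosomal proteins or are noncoding Snhg genes, and the ends are trimmed after splicing while box-specific proteins cover the RNA. DGCR8 and Drosha form the Microprocessor, which cuts primary microRNA transcripts, Dicer cuts the resulting hairpins, and METTL3 is the catalytic subunit of the complex that methylates adenosines in nascent messenger RNA. Of the 139 placed members, 135 lay inside another gene, of which 88 were in protein-coding and 47 in noncoding hosts, and these hosts were 89 genes. Snhg14 held 18 members, Rpl13a and Snhg12 held 4 each. The 4 placed members with no spanning gene were Snord118, Snord13, Snord89 and Scarna2, and Snord118 and Snord13 are known to be transcribed from promoters of their own.

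Per length, the H/ACA class had the highest median level but not the highest upper quartile. Levels are counts-per-million of the library total scaled by TMM (CPM) per kb of exon width, averaged over the 35 libraries. The median was 28.6 in H/ACA genes, 12.3 in C/D genes and 5.52 in Cajal body genes, and the upper quartiles were 104.6, 27.7 and 216.6. The C/D median includes the Snord116-like copies named below. Reads were found in every library for 34 of the 40 H/ACA genes, 52 of the 97 C/D genes and 4 of the 9 Cajal body genes. No read was found for Snora19, Snora35 and 16 of the 17 Snord116-like C/D copies in Snhg14, a cluster known for its expression in neurons, and the last copy had 1 read. Reads shared by near-identical copies may have been dropped in counting, so these zeros are uncertain. Reads of unspliced host RNA over the same bases cannot be told apart from those of a mature member. Median exon widths were 132.5 bases in H/ACA and 84 bases in C/D genes, and the bins of width differed in both level and class. The median was 15.1 CPM per kb in the 45 genes of up to 80 bases (43 of them C/D), 3.44 in the 43 genes of over 80 to 100 bases (all C/D), and 148.2 in the 10 genes of over 150 bases (5 H/ACA, 4 Cajal body and 1 C/D). Within classes the level was not ordered with width in 1 direction (Spearman 0.276 in 40 H/ACA, -0.215 in 97 C/D and 0.867 in 9 Cajal body genes), so class and width cannot be told apart in these bins. Whether library preparation recovers shorter RNAs less well was not tested.

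A few members carried a large share of each class. The 3 highest genes made up 52.4% of the H/ACA counts, 43.3% of the C/D counts and 88.3% of the Cajal body counts. Snora61, in an intron of Snhg12, averaged 799.0 CPM per kb over an exon width of 130 bases, between 305 and 3316 in single libraries. RefSeq lists only 62 bases of it (chr4:132310307-132310368), so its level per kb depends on the annotation. Snora74a of Snhg4 averaged 776.4, between 143.0 and 1932, and had the most counts of the class (152.2 CPM, not per kb). Snora24 of Snhg8 (chr3:123507937-123508066) averaged 700.3, between 170.8 and 3365, and Snord21 of Rpl5 (chr5:107904555-107904648) 769.0, between 240.8 and 4185. These 4 ranges overlapped widely, so the order of the highest genes was not separated from the spread between libraries. Among the other high H/ACA genes, Snora7a of Rpl32 averaged 304.0 and Snora62 of Rpsa 217.6 CPM per kb. Next among C/D genes were Snord22 of Snhg1 at 572.8, Snord87 of Snhg6 at 570.8, Snord15b of Rps3 at 346.2, Snord34 of Rpl13a at 158.6 and Snord57 of Nop56 at 150.6 CPM per kb. Among Cajal body RNAs, Scarna10 of Ncapd2 (411.7) and Scarna2 (381.7) led, followed by Scarna13 of Snhg10 (216.6) and Scarna6 of Atg16l1 (169.4), while Scarna17 (1.22) and Scarna3b (0.845) were lowest.

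**Figure D1:**
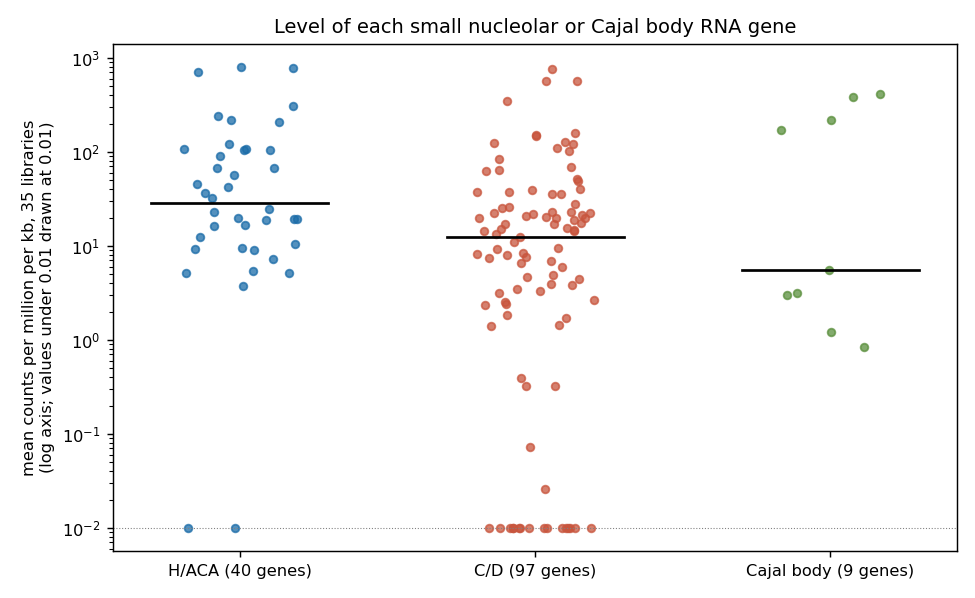
Level of every gene in the H/ACA (40), C/D (97) and Cajal body (9) classes, as mean CPM per kb of exon width over 35 RNA libraries on a log axis, with genes under 0.01 drawn at 0.01. The classes overlap over most of their range, and the C/D class holds the most genes at the bottom.

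In most groups members varied more between replicate libraries than genes of like level. The median SD on the log2 scale was larger for members in 14 of 15 groups with replicates, by at least 1.5 times in 9 of them. It ran from 0.152 to 1.09 for members and from 0.138 to 0.445 for genes of like level, and in the knockout lines at 42 °C it was 0.415 for members and 0.423 for the others. Library totals ran from 7102867 to 13579892 counts, of which the members took 0.0826 to 0.326%. The summed H/ACA level ran from 359.1 to 2127 CPM (median 617.2), the C/D level from 238.3 to 1459 CPM (median 413.2) and the Cajal body level from 204.9 to 749 CPM (median 387.3). The classes varied together, and the ratio of H/ACA to C/D stayed between 1.09 and 2.14. Replicate 1 of the DGCR8 line at 96 h of 4OHT held the highest sums (2127 CPM H/ACA and 1459 CPM C/D), against 373.5 and 263.2 CPM in replicate 2 of the same group. The mitochondrial 16S ribosomal RNA (mt-Rnr2) took 27.1% of the counts in replicate 1 and 9.55% in replicate 2, and between 8.3 and 27.1% over all 35 libraries. In that group the median SD between replicates was 1.09 on the log2 scale for members, 0.234 for host genes and 0.268 for genes of like level. In the parental cells at 42 °C it was 0.729 for members and 0.286 for genes of like level, with replicate 1 above replicate 2 in 91 of 98 members.

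**Figure D2:**
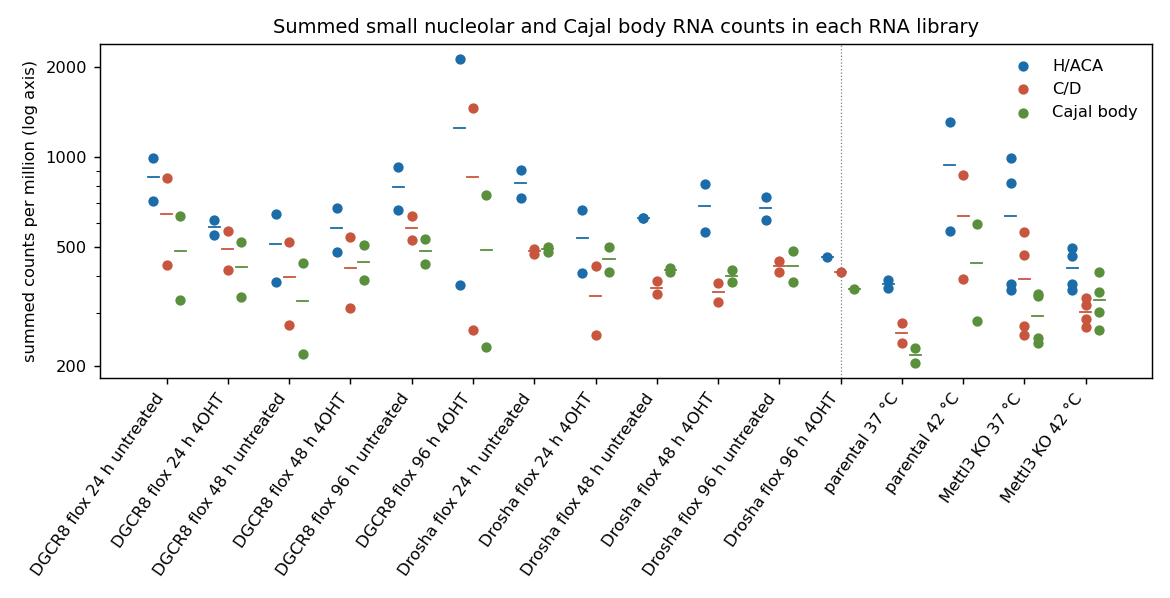
Summed CPM (log axis) of H/ACA, C/D and Cajal body RNA genes in each of the 35 RNA libraries, with 1 point per class and library. The 3 classes move together between libraries, and replicate 1 of the DGCR8 line at 96 h of 4OHT stands highest, at 2127, 1459 and 749 CPM.

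The libraries were checked against their labels. Drosha measured 82.4 to 125.9 CPM in untreated and 23.4 to 29.1 CPM in 4OHT libraries of its line, and Mettl3 was lower in the knockout lines at 37 °C (log2 -1.23 ± 0.25, edgeR adjusted p = 0.0439). The whole-gene count of Dgcr8 was higher, not lower, in all libraries labelled DGCR8 4OHT (log2 1.27, 0.95 and 1.02 at 24, 48 and 96 h). It was also higher after 4OHT in the Drosha line (log2 1.84 at 24 h and 1.86 at 48 h), and the cause was not tested. The count of Dgcr8 thus did not show the deletion, and 4OHT in the DGCR8 line names the label only. Stem cell markers were read in every library (Pou5f1, 456.3 to 1165 CPM), whereas 10 markers of other lineages summed to between 27.3 and 181.8 CPM.

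Few members changed after 4OHT in the DGCR8 line. At 24 h, 83 of 98 tested members were lower and 15 higher, with a median log2 fold change of -0.54 in H/ACA, -0.28 in C/D and -0.24 in Cajal body genes, beside 0.00 over all genes. Other genes under 200 bases had a median of -0.41, with 178 of 216 lower, and the hosts of the members had -0.07. In bulk RNA, fewer cells of a type and less RNA per cell cannot be told apart. None of the 98 passed edgeR's quasi-likelihood test after Benjamini-Hochberg adjustment over all genes, where 0.107% of all tested genes did. By unadjusted p under 0.05 there were 3, where 5.21% of all genes passed, and DESeq2 called 0. The lean rested on 1 library: without untreated replicate 1, 61 of 104 members were higher and the median was 0.13. At 48 h, 55 members were higher and 43 lower (median 0.06), and 0 were called by either tool, against 1.48% of all genes, with 2 at an unadjusted p under 0.05, where 14.9% of all genes passed. Without untreated replicate 2 or 4OHT replicate 1 the median was -0.21 or -0.22.

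At 96 h, 1 of 98 members was called in the DGCR8 line, against 13.5% of all genes. Snord53, a C/D RNA in an intron of Wdr43 (chr17:71640889-71640956), measured 0.777 and 0.374 CPM in untreated and 2.27 and 1.60 CPM in 4OHT libraries. The groups did not overlap, but these were among the lowest levels tested. The log2 fold change was 1.71 ± 0.46 (SE, edgeR adjusted p = 0.0326), while that of Wdr43 was -0.07 ± 0.11 (adjusted p = 0.712). DESeq2 gave Snord53 an adjusted p of 0.113 and called 0 members. At an unadjusted p under 0.05 there were 7 members, where 28.8% of all genes passed. The H/ACA gene with the smallest p was Snora3 at -1.19 ± 0.43 (adjusted p = 0.0958). The median over all members was 0.20, or -0.02 when libraries were scaled by their totals, which put the median of all genes at -0.11. Without the high replicate 1 of the 4OHT group it was -1.13, with 6 members called, all lower, against 16.4% of all genes. Without replicate 2 it was 0.89, with 26 called, 24 of them higher, against 19.1% of all genes. In both fits the lone 4OHT library was assumed to vary like the other groups. Without either untreated library 0 were called. Over both replicates only 14 of the 98 members did not overlap between groups, a share under the 51.8% of all genes. Snora24 showed the spread: it measured 110.6 and 51.6 CPM in untreated libraries and 437.4 and 104.0 CPM in 4OHT libraries. Of 6 stem cell markers at this time 3 were higher and 3 lower (median 0.0043), and 1 was called, Tdgf1, which fell by 0.53. Of 7 tested markers of other lineages 4 were higher and 3 lower (median 0.04), and 1 was called, Sox1, which rose by 1.05. The summed markers of other lineages ran from 60.7 to 61.8 CPM in untreated and from 78.2 to 94.6 CPM in 4OHT libraries. The part of these markers in the members' values was not tested.

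In the Drosha line the H/ACA genes leaned lower at all 3 times. Their median log2 fold change was -0.49 at 24 h (33 of 39 lower), -0.20 at 48 h (24 lower) and -0.55 at 96 h (34 lower). The C/D medians were -0.19, -0.05 and -0.02, with 43, 34 and 33 of 63 lower. The other genes under 200 bases also leaned lower, with medians of -0.30, -0.20 and -0.22. The groups did not overlap for 48, 44 and 76 of 107 members, beside 49.8, 45.9 and 81.0% of all genes, so the members did not stand apart in this. At 24 h, 1 of 107 tested members was called, lower, against 0.184% of all genes in either direction and 0.0307% lower, and 26 had an unadjusted p under 0.05, where 11.2% of all genes passed. At 48 h edgeR called 0 of 107, against 2.82% of all genes, with 10 at an unadjusted p under 0.05, where 17.0% of all genes passed, and DESeq2 called 1. Without 4OHT replicate 1 at 24 h 5 members were called, all lower, against 0.292% of all genes, and without 4OHT replicate 2 at 48 h 7 were called, against 6.09% of all genes. These fits also leave a lone 4OHT library, assumed to vary like the other groups.

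The C/D RNA Snord22, in an intron of the noncoding host Snhg1 (chr19:8725866-8725991), was the member called at 24 h. It measured 101.4 and 89.9 CPM in untreated and 60.5 and 37.7 CPM in 4OHT libraries at 24 h, 60.2 and 59.6 against 40.3 and 38.9 CPM at 48 h, and 63.2 and 81.8 against 40.0 CPM at 96 h. Every treated library was below both untreated libraries of its time. The log2 fold changes were -0.95 ± 0.17 (edgeR adjusted p = 0.0439), -0.60 ± 0.18 (adjusted p = 0.0929, the call that DESeq2 made) and -0.86 ± 0.23 (adjusted p = 0.0134). The call at 24 h was lost without untreated replicate 1 (adjusted p = 0.784), without untreated replicate 2 (0.201) or without 4OHT replicate 2 (0.384).

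At 96 h the Drosha 4OHT group was a single library, so each call below compares that library with 2 untreated ones, with the spread taken from the other groups and no replicate of the treatment. By this test 11 of 107 members fell and 2 rose. Over all genes 23.7% were called, 12.7% higher and 11.0% lower, so the share of members called was below that of all genes. At an unadjusted p under 0.05 there were 26 members, where 35.9% of all genes passed. Genes with Snora names gave 7 of the falls, the longer Snora43 among them. Snora33, in an intron of the ribosomal protein gene Rps12, measured 18.4 and 21.1 CPM in untreated and 10.1 CPM in the 4OHT library (log2 -0.96 ± 0.20, adjusted p = 0.00317). Snora64 of Rps2 fell from 3.61 and 5.39 to 1.19 CPM (-1.91 ± 0.50, adjusted p = 0.0132), and Rps2 itself fell by 0.74. Snora62 of Rpsa fell from 34.1 and 43.6 to 15.9 CPM (-1.29 ± 0.34, adjusted p = 0.0145). The others were Snora16a of Snhg12 (-1.09), Snora26 of Dancr (-1.08), Snora7a of Rpl32 (-1.77) and the longer Snora43 (-0.71).

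The C/D class gave 2 falls and 1 rise. Snord49a fell from 6.98 and 10.4 to 3.58 CPM (-1.28 ± 0.30, adjusted p = 0.00712), beside Snord22. Snord15b of Rps3 rose from 47.6 and 40.8 to 85.9 CPM (0.96 ± 0.25, adjusted p = 0.0137). Among Cajal body RNAs, Scarna13 rose from 59.3 and 58.1 to 95.02 CPM (0.69 ± 0.15, adjusted p = 0.00512), whereas Scarna6 fell from 43.3 and 27.1 to 17.0 CPM (-1.05 ± 0.27, adjusted p = 0.0109) while its host Atg16l1 rose by 0.48. Scarna10 fell by 0.61 and its host Ncapd2 by 0.72. When libraries were scaled by their totals, the median of all genes moved to -0.30, and neither Scarna13 (0.41) nor Snord15b (0.68) was called. In the treated library mt-Rnr2 took 21.3% of the counts, against 11.7 and 11.8% in the untreated ones. Of 6 stem cell markers 5 were lower (median -0.38): Pou5f1, Sox2 and Tdgf1 fell by 0.58, 0.68 and 0.67, while Nanog rose by 0.65. Of 10 markers of other lineages 7 were higher (median 0.27), Gata6 rose by 0.71 and T fell by 1.75, and the 10 together summed to 142.6 CPM against 123.4 to 127.9 CPM. The part of these in the members' values was not tested.

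The 4OHT effect was also compared directly between the lines. None of 111 members differed at 24, 48 or 96 h in edgeR's test, where 0.00602, 0.00602 and 0.181% of all genes did, and DESeq2 called 0 at each time. At an unadjusted p under 0.05 there were 3, 2 and 5 members, where 3.52, 5.16 and 12.5% of all genes passed. The median difference at 96 h, DGCR8 minus Drosha line, was 0.65 in H/ACA and 0.19 in C/D genes, and the H/ACA gene with the smallest p was Snora7a (3.43 ± 1.16, adjusted p = 0.246). Over all members the median at 96 h was 0.51, and -0.79 without replicate 1 of the DGCR8 4OHT group, where 3 members were called, all lower, against 11.3% of all genes.

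After 1 h at 42 °C, 75 of 98 members were higher in the parental cells and 23 lower, with medians of 1.01 in H/ACA, 1.04 in C/D and 1.02 in Cajal body genes. Their hosts had a median of -0.01. Other genes under 200 bases had a median of 0.99, with 207 of 262 higher. All 8 tested small noncoding RNAs of a separate list, which the name rule did not take, were higher (median 1.71). They were Rn7sk, Rmrp, Rpph1, Terc, Rn7s2, Rnu11, Rnu12 and Vaultrc5. In edgeR's test 0 members were called, as against 0.0192% of all genes, with 32 at an unadjusted p under 0.05, where 2.72% of all genes passed, and DESeq2 called 3 (Snord33, Snord70 and Snora24). Without replicate 1 at 42 °C, 55 of 102 members were higher and the median was 0.09.

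The labels number the parental libraries 1 and 2 at each temperature without saying whether these were separate lines or cultures. With that number (and the line name in the knockout) as a block, 8 members rose after heat, against 0.761% of all genes. Same-numbered parental libraries deviated together across all genes (Pearson r of 0.553) but hardly across the 98 members (0.085). Snord34, a C/D RNA of the ribosomal protein gene Rpl13a, measured 4.25 and 5.17 CPM at 37 °C and 20.0 and 18.4 CPM at 42 °C, and both heated libraries were far above both others (blocked log2 2.02 ± 0.26, adjusted p = 0.00575). Snora7a of Rpl32 measured 17.7 and 24.3 CPM at 37 °C and 58.6 and 56.4 CPM at 42 °C. Snora62 of Rpsa measured 17.6 and 14.0 CPM at 37 °C and 69.2 and 34.6 CPM at 42 °C (1.65 ± 0.30, adjusted p = 0.0337). Neither RNA overlapped between temperatures, as was seen for 47 of 98 members and 29.7% of all genes. The other calls were Snord87 (1.02), Snord47 of Gas5 (1.32), Snord14e of Hspa8 (2.28), Snord70 (2.19) and Snord33 (1.99). Of the 8, 6 were C/D and 2 H/ACA genes.

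In the Mettl3 knockout lines the members leaned the other way. After heat 79 of 98 were lower, with medians of -0.38 in H/ACA, -0.58 in C/D and 0.23 in Cajal body genes, and the other genes under 200 bases had a median of -0.29. The test without a block called 0 (0.185% of all genes), 11 had an unadjusted p under 0.05, where 5.04% of all genes passed, and DESeq2 called 0. With the line as a block 8 fell and 1 rose, against 6.77% of all genes. Snord34 measured 17.9, 13.6, 8.49 and 6.02 CPM at 37 °C and, in the same order of lines, 7.68, 6.17, 7.54 and 2.33 CPM at 42 °C, lower in 4 of 4 lines (-0.94 ± 0.19, adjusted p = 0.0148). Over all members the 4 libraries of each temperature did not overlap for 3 of 98, beside 3.52% of all genes. The largest fall was that of the little-read Snora78 (-3.04 ± 0.61, adjusted p = 0.0146), and Snora52, Snora75, Snord2, Snord12, Snord65 and the longer Snora43 also fell. Snord87 rose (0.54 ± 0.12, adjusted p = 0.0260).

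At 37 °C 68 of 98 members were higher in the knockout lines than in the parental cells (median 0.51, hosts -0.18, other short genes 0.49). edgeR called 0, against 0.902% of all genes, with 14 at an unadjusted p under 0.05, where 16.0% of all genes passed. DESeq2 called Snora20, an H/ACA RNA at 2.73 and 2.30 CPM in parental and 0.418 to 0.631 CPM in knockout libraries, which edgeR gave an adjusted p of 0.109. At 42 °C 88 members were lower in the knockout (median -1.14 in H/ACA, -0.99 in C/D and -0.33 in Cajal body genes). The median was -0.94 in other genes under 200 bases and -1.05 in the 8 small noncoding RNAs of the separate list, all 8 lower. Of the members 1 was called, lower, against 0.64% of all genes in either direction and 0.307% lower. At an unadjusted p under 0.05 there were 30, where 16.1% of all genes passed. DESeq2 called 9, all lower, a count given without its share over all genes. These comparisons share their libraries with those of heat within each genotype, so a high parental replicate at 42 °C enters both.

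That member was Snora24, the H/ACA RNA of Snhg8. It measured 116.3 and 146.1 CPM in the parental and 26.7, 36.6, 58.6 and 22.2 CPM in the knockout libraries at 42 °C, so the groups did not overlap, as for 27 of 98 members and 25.0% of all genes. The log2 difference was -1.86 ± 0.37 (edgeR adjusted p = 0.0482). At 37 °C it measured 32.0 and 37.6 CPM in the parental and 81.9, 94.95, 37.7 and 61.0 CPM in the knockout libraries, the opposite order. The call was lost when any 1 library of either group was left out (adjusted p between 0.0538 and 0.286). Over all members, 53 of 102 were higher in the knockout at 42 °C without parental replicate 1.

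The heat effect differed between the genotypes in 0 members in edgeR's test (0.0% of all genes; 34 members had an unadjusted p under 0.05, where 1.33% of all genes passed), although the median difference was -1.63 in H/ACA, -1.43 in C/D and -0.70 in Cajal body genes. The other genes under 200 bases had a median difference of -1.22, and the 8 tested small noncoding RNAs of the separate list -1.57, all 8 lower. With the line as a block it differed in 1, Snord34 (-2.96 ± 0.32, adjusted p = 0.0116), where 0.0128% of all genes were called. DESeq2 without a block called Snora24. Beside these values, 6 of 8 tested markers of other lineages were lower in the knockout lines at 37 °C, and Gata6, Gata4 and Sox1 passed the test. The 10 on the list summed to between 31.4 and 85.2 CPM, against 52.6 to 58.3 CPM in parental libraries. All 6 stem cell markers were lower too (median -0.35), and none passed. The part of these in the members' values was not tested.

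**Figure D3:**
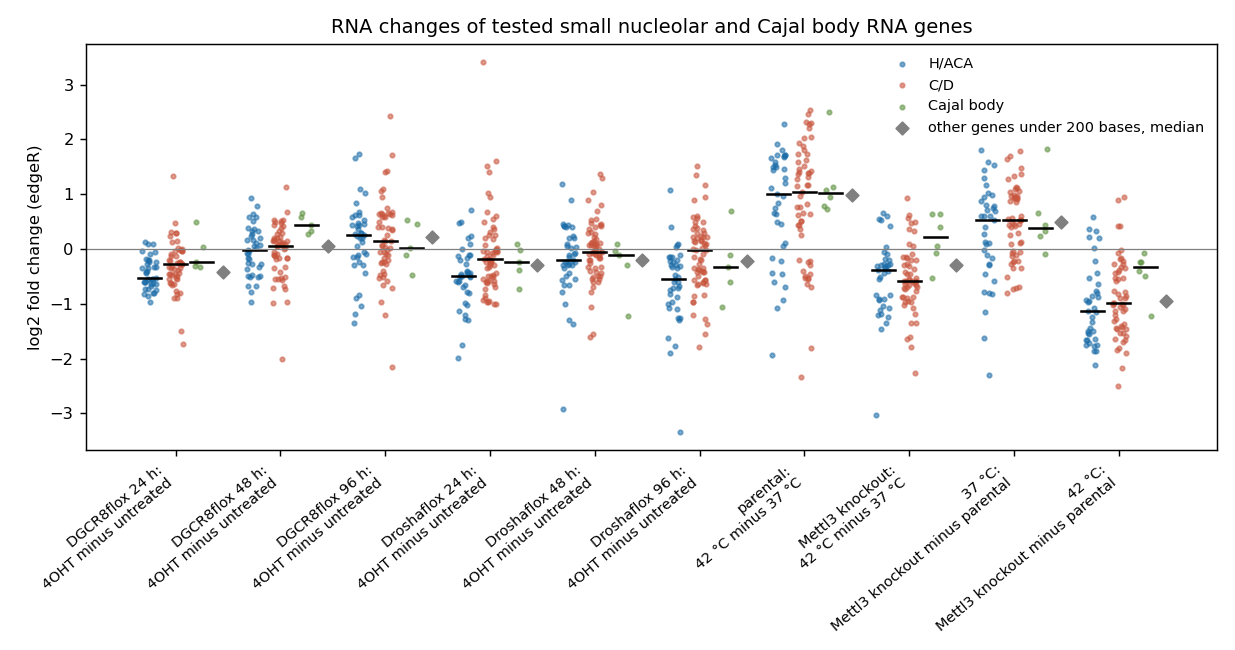
edgeR log2 fold changes of the tested H/ACA, C/D and Cajal body RNA genes (points) in the RNA comparisons, with grey diamonds for the median of other genes under 200 bases. H/ACA and C/D medians and the diamond sit near 1 for heat in parental cells and near -1 for knockout against parental cells at 42 °C, where the Cajal body median is -0.33.

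Genes for the proteins that bind, build or trim these particles were called at 96 h in the floxed lines only. The share of all genes called was also largest in these comparisons. Only RNA of these genes was counted, not protein. In the DGCR8 line 3 of the 35 tested were called (8.57%, against 13.5% of all genes), and in the Drosha line 10 of 35 (28.6%, against 23.7% of all genes), the latter from the single 4OHT library described above. None of the 4 tested C/D core proteins (the methyltransferase Fbl and its partners) passed the test in any RNA comparison. Of the 4 H/ACA core proteins, Nhp2 fell at 96 h in the DGCR8 line, from 140.8 and 149.9 to 79.9 and 74.7 CPM (-0.91 ± 0.19, adjusted p = 0.00984), and in the Drosha line (-0.74), where Gar1 also fell (-0.80). Of 4 Cajal body proteins, Coil (-0.69) and Nolc1 fell in the Drosha line at 96 h, Nolc1 from 519.5 and 517.5 to 292.6 CPM (-0.83 ± 0.11, adjusted p = 0.000215). Of 9 assembly factors, Ruvbl2 fell in both lines at 96 h (-0.63 and -0.75), and Ruvbl1 and Pih1d1 fell in the Drosha line. Of 14 tested end-processing and decay genes, Exosc2 fell in both lines, and Xrn1 and Tgs1 rose in the Drosha line.

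On chromatin, windows of 5 kb holding members carried more precipitate than most of the genome in the DGCR8 and Drosha libraries labelled DSG. The 139 placed members fell into 112 distinct windows, and ChIP totals ran from 13721664 to 86123848 counts. Where a condition had 1 library, values are log2 ratios of CPM with a pseudocount of 1, for windows of at least 50 counts in the pair, and they have no replicate check. For DGCR8 with DSG the median over 103 member windows was 1.13, beside 0.29 over all windows and 0.20 over windows at starts of highly expressed genes. At least 2-fold over input were 60 of the 103 (58.3%), against 19.1% of all windows. H/ACA windows had a median of 1.45, C/D windows 1.21 and Cajal body windows 0.36. With FA alone the median was -0.01, and 5 of 102 windows (4.9%) passed 2-fold, against 10.2% of all windows. The wild type and 37 °C DGCR8 precipitates described below, whose titles name no crosslinker, had member medians of 0.15 and 1.89 over input. Each of these had 1 library, so crosslinker and library cannot be told apart.

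Drosha with DSG was measured in other libraries, and it shared its input, from parental cells, with Dicer. The median was 1.10 (1.36 in H/ACA, 1.22 in C/D and 0.20 in Cajal body windows), beside -0.02 over all windows, and 57 of 101 windows (56.4%) passed 2-fold, against 15.1% of all windows. Across the 101 windows the DGCR8 and Drosha ratios had a Spearman correlation of 0.778, a description over windows that share sequence and mappability. Dicer with DSG had a median of -0.25, and 0 of 103 windows passed 2-fold, against 0.691% of all windows. The DGCR8 ratio was weakly ordered with the member's own RNA level (Spearman 0.293, 102 windows) or its host's (0.227, 86 windows).

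**Figure D4:**
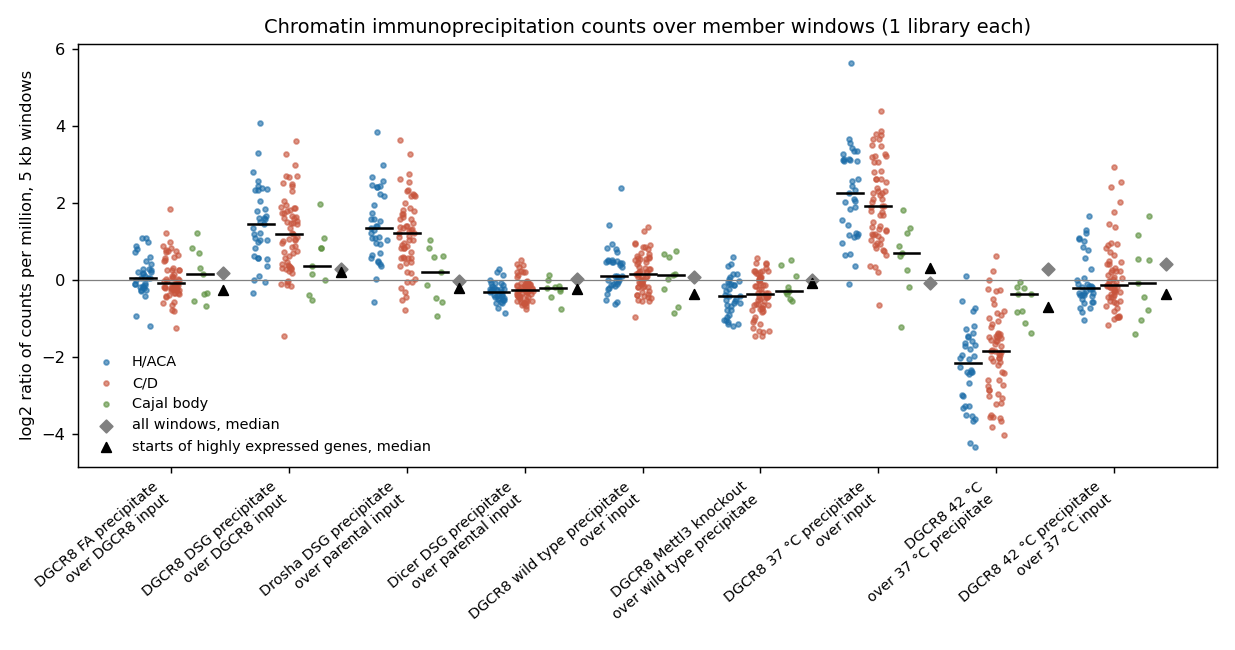
log2 ratios of CPM in 5 kb windows holding H/ACA, C/D or Cajal body RNA genes (points) for each ChIP comparison with 1 library a condition. H/ACA and C/D windows stand above 1 in the median for DGCR8 and Drosha with DSG and for DGCR8 at 37 °C, and below -1 for DGCR8 at 42 over 37 °C, while Cajal body windows stay nearer to 0.

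Single windows spread widely, and those named first are from the 86 of 103 with an input of at most 5 times that of the median window. The highest for DGCR8 with DSG held Snora81, an H/ACA RNA in an intron of the translation factor gene Eif4a2 (chr16:23110770-23110933): 691 precipitate against 37 input counts, a log2 ratio of 4.07 (95% counting interval 3.63 to 4.62). Drosha gave 3.85 there and Dicer -0.85. Next were Snord22 in Snhg1 at 3.61 (727 against 54 counts), Snora73a and Snora73b in Snhg3 at 3.30 (1739 against 162), Snord87 in Snhg6 at 3.27 (1480 against 141) and Snord47 in Gas5 at 2.99 (1039 against 120). Drosha ratios were 3.65 for Snord22, 2.98 for the Snora73 pair and 3.28 for Snord47. The lowest of them held 2 Snord116-like copies (-1.47), followed by those of Scarna17 (-0.40), Snora36b (-0.35), Snord13 (-0.16) and Snord23 (-0.11). Of the windows with more input, Scarna13 stood at -0.53 and Snord118 at -0.13. The highly counted Scarna2 and Scarna10 stood at 0.15 and 0.00.

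Member windows with and without a gene start had like medians. For DGCR8 with DSG the median was 1.04 in the 40 windows with a start and 1.35 in the 62 without. For Drosha it was 1.11 in the 40 with a start and 1.10 in the 61 without. Within 59 host genes that had both, member windows were higher than the host's other windows in 38 for DGCR8 with DSG (median difference 0.21) and in 35 for Drosha (0.35). The windows of Snora73a/b and Snord47 also hold the start of their noncoding host. They are shown because these windows are among the 5 highest for DGCR8 and the host's start lies inside them: the 250 bases before the start, from RefSeq on GRCm38.p6, 5' to 3' on the host's strand, with each CG pair in capitals.
Snhg3: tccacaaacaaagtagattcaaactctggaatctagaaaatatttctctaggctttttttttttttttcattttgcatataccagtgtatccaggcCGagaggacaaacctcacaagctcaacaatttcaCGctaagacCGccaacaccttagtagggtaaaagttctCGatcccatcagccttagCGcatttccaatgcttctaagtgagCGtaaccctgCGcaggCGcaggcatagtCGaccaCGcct
Gas5: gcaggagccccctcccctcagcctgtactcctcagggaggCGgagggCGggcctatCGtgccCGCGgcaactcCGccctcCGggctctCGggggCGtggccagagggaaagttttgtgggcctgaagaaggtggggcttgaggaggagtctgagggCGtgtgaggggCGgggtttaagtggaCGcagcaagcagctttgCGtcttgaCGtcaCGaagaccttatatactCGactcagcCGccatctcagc
The Snhg3 stretch (chr4:132353687-132353936, minus strand) holds 10 CG pairs and the Gas5 stretch (chr1:161034916-161035165, plus strand) 17, where the median over 32851 promoters of that length was 6. As many or more were found in 37.8% and 23.5% of promoters. CG reads the same on both strands, and the count is a description of these letters only.

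METTL3 was precipitated from 2 clones, with 2 precipitates and 1 input each, so the 4 precipitates are repeats within 2 clones. In edgeR's test over 477127 windows, 54 of 104 member windows differed from input, 39 higher and 15 lower, against 4.14% of all windows higher and 12.5% lower. With the clone as a block 39 were higher and 15 lower. Of windows with an H/ACA gene 17 of 35 were higher and 2 lower, of those with a C/D gene 24 of 62 were higher and 11 lower, and of those with a Cajal body gene 0 of 9 were higher and 2 lower. Some windows hold more than 1 class. The medians were 0.56, 0.39 and 0.09, beside 0.05 over all windows and -0.75 over starts of highly expressed genes. In single precipitates the H/ACA median was above the C/D median in 4 of 4, while the Cajal body median was slightly above the C/D median in 2 of 4 (0.46 against 0.42 and 0.433 against 0.428). Among the 81 of 104 windows with an input of at most 5 times that of the median window, the highest were those of Snora81 (2.62, with 2.99 and 2.86 in the precipitates of clone 1 and 3.11 and 2.12 in those of clone 2), of Snord57 and Snord110 in the C/D core gene Nop56 (2.33), of Snora3 in Rpl27a (1.81), of Snora69 in Rpl39 (1.75) and of Snord22 (1.74). The lowest of these were those of Snord93 (-1.09), Snord123 (-1.01), Snora26 (-0.92), Snord72 (-0.67) and Snord55 (-0.64). Windows with more input reached lower values, down to Snord88c (-1.51) and Scarna13 (-1.29). When scaled by library totals, which put the median of all windows at 0.26, 51 were higher and 10 lower, and without input replicate 1 33 were called, against 8.41% of all windows.

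The DGCR8 precipitate was also compared between wild type and Mettl3 knockout cells, with 1 library each. In the wild type of this set the member median was 0.15 over input, and 4 of 101 windows (3.96%) passed 2-fold, against 8.57% of all windows. Knockout over wild type had a median of -0.37 (-0.41 in H/ACA, -0.37 in C/D, -0.28 in Cajal body windows), beside 0.00 over all windows and -0.07 at starts of highly expressed genes. At least 2-fold lower were 15 of 103 windows (14.6%), against 1.24% of all windows. Among them were the windows of Snord22 (-1.45), Snord47 (-1.36) and Snora81 (-1.15).

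Less precipitate was counted over member windows after heat. For DGCR8 at 37 °C, 79 of 101 windows (78.2%) were at least 2-fold over input, against 16.4% of all windows, with medians of 2.27 in H/ACA, 1.92 in C/D and 0.69 in Cajal body windows. At 42 over 37 °C, 80 of 103 windows (77.7%) were at least 2-fold lower, against 4.15% of all windows. The medians were -2.16 in H/ACA, -1.84 in C/D and -0.37 in Cajal body windows, beside 0.28 over all windows and -0.70 at starts of highly expressed genes. The 37 °C precipitate held 20372438 and the 42 °C precipitate 79201858 counts, and each temperature had 1 DGCR8 library, so library and temperature cannot be told apart. The window of Snora81 had 1316 precipitate counts at 37 °C and 247 at 42 °C in spite of that depth (log2 -4.35), that of Snora73a/b -4.24, Snord47 -3.56 and Snord22 -3.55. Both these comparisons use the 37 °C precipitate, so a high value in the former favours a low one in the latter. Within 59 host genes, member windows were above the host's other windows in 27 at 42 over 37 °C (median difference -0.10, quartiles -0.85 and 0.49), so member windows were not set apart from the rest of their host. The 42 °C precipitate over the 37 °C input, a ratio added after the data were seen, had a member median of -0.14 beside 0.41 over all windows.

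METTL3 had 2 precipitates at each temperature, from lines H4 and H5. Over 105 member windows the median change at 42 °C was -1.03 (-1.28 in H/ACA, -1.06 in C/D, -0.28 in Cajal body windows), beside 0.01 over all windows and -0.44 at starts of highly expressed genes, and 5 windows were higher. Without a block edgeR called 0 member windows and 0.0% of all windows, although 70 member windows had an unadjusted p under 0.05, against 6.67% of all windows. With the line as a block 63 fell and 1 rose, against 1.84% of all windows lower and 0.238% higher: 27 of 36 H/ACA, 37 of 62 C/D and 1 of 9 Cajal body windows fell. Leaving out any 1 precipitate leaves a lone library at that temperature, so those fits do not check the 63 falls. The Snora81 window held 1445 and 1261 counts at 37 °C and 375 and 338 at 42 °C. Relative to the 37 °C inputs, H/ACA windows had medians of 1.39 and 1.20 at 37 °C and -0.38 and -0.17 at 42 °C, and C/D windows 1.01 and 0.94 at 37 °C and -0.39 and -0.01 at 42 °C. All windows had medians of 0.49 and 0.56 at 37 °C and 0.67 and 0.65 at 42 °C on the same scale. The DGCR8 and METTL3 changes, which come from different libraries, had a Spearman correlation of 0.885 over 103 windows.

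**Figure D5:**
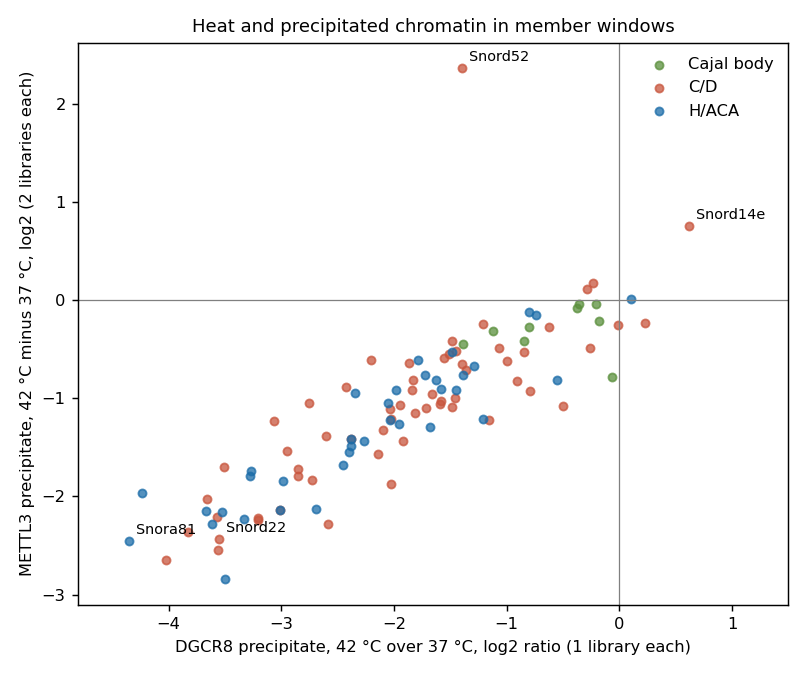
Change with heat in each 5 kb window holding a member: DGCR8 precipitate at 42 over 37 °C (log2 ratio, 1 library each) on the x axis and METTL3 precipitate at 42 minus 37 °C (edgeR log2, 2 libraries each) on the y axis. Most windows lie at lower left, Cajal body windows lie nearer to 0, and the windows of Snord52 and of the Snord14 genes of Hspa8 lie apart.

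A few windows went the other way, and they were singled out after their values were seen. The window of Snord14c, Snord14d and Snord14e in Hspa8, a heat shock cognate gene, had DGCR8 at 0.62 (counting interval 0.50 to 0.74, 4046 against 679 counts), and METTL3 over input of 1.08 and 1.10 at 37 °C and 2.07 and 1.80 at 42 °C. The Snord52 window was the 1 that rose for METTL3 under the block, from 933 and 825 to 7193 and 5866 counts (log2 2.36), while DGCR8 there was at -1.40. It lies 1.4 kb from the heat shock gene Hspa1b and 14.4 kb from Hspa1a.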

How the data were processed

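RNA values are exon counts per gene and ChIP values are counts per 5 kb window, both deposited by the authors as raw counts. Per the submitters' processing notes Bowtie and mm10 were used, and the counter, its strand setting and the annotation are not given in the sources used here. Symbols came from the RefSeq tables for GRCm38.p6, which matched 37607 of 39017 identifiers.

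Genes were tested with edgeR 4.0.16 (quasi-likelihood test, TMM scaling, filterByExpr, Benjamini-Hochberg adjustment over all genes, called at 0.05 or less) in 3 fits: the DGCR8 line (14973 genes, 98 members), the Drosha line (16262 genes, 107 members) and the heat set (15635 genes, 98 members), with a joint fit of both floxed lines (16606 genes, 111 members) for their difference. DESeq2 1.42.0 was an alternative, and its calls are given without its share over all genes. The scripts were tested on simulated data. Reported errors are SE of the log2 fold change, derived as its absolute value divided by the square root of edgeR's F statistic. For METTL3, windows averaging 10 counts or more per library went through the same test. CPM of RNA use TMM-scaled totals, and those in the ChIP ratios use plain library totals. Counting intervals cover 95% and counting error only, since reads without molecular identifiers are not independent molecules.

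Members and lists were chosen with earlier results of these data known. The text names every called member (the 10 with the smallest p where more were called), up to 3 per class with the smallest p, the highest and lowest levels per class, the 5 highest and lowest windows for DGCR8 with DSG and METTL3 among those with an input of at most 5 times the median window, and called genes of the protein lists. In the heat set, libraries of 1 line at both temperatures deviated together from their group means (Pearson r of 0.553 for the parental pair and 0.758, 0.796, 0.790 and 0.679 for the knockout lines, across genes), and the line names in the labels gave the pairing, which for parental libraries is only a number. Across the 98 members r was 0.085 for the parental pair and 0.299 to 0.439 for the knockout lines. For METTL3 precipitates of H4 and H5 r was 0.243 across windows. The alternatives tried were other scalings, no filter on low counts, DESeq2, a block, fits of only the groups compared, and leaving out each library. One item that the naming rule would include is not reported here.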

Additional observations from a re-analysis of the deposited data

How the results depend on the processing

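The number of called members depended on the filter and on single libraries, and the causes were not tested. Counts in this paragraph are given without the share of all genes called in the same fit. They show that dependence only, and not whether members stood apart from other genes. Fits with a lone library in a group have no replicate of that group. With every gene of at least 1 count kept, called members numbered 2, 2 and 22 in the DGCR8 line at 24, 48 and 96 h, 18, 11 and 23 in the Drosha line, 3 and 14 for the difference between lines at 48 and 96 h, 1 for heat in parental cells, 10 for knockout against parental cells at 42 °C and 5 for the difference in heat effect. With library totals as the scale they numbered 0 in the DGCR8 line at 96 h, 22 in the Drosha line at 96 h and 0 for knockout against parental cells at 42 °C. DESeq2 called 0 in the DGCR8 line at 96 h, 1 in the Drosha line at 48 h, 3 for parental heat, 1 and 9 for knockout against parental cells at 37 and 42 °C, and 1 for the difference in heat effect. Fits of only the groups compared called 0 in the DGCR8 line at 96 h, 12 and 1 in the Drosha line at 24 and 48 h and 0 for knockout against parental cells at 42 °C. With the replicate block 2 were called in the DGCR8 line at 96 h, 2 in the Drosha line at 24 h, 8 and 9 for heat in parental and knockout cells, 1 for the difference in heat effect and 64 METTL3 windows for heat. In the floxed lines the numbers share only a label (r of -0.485, 0.358, 0.309, -0.062 and -0.183 between untreated and 4OHT pairs). Leaving out 1 library gave 0 to 26 in the DGCR8 line at 96 h, 0 to 5 and 0 to 7 in the Drosha line at 24 and 48 h, 0 to 3 for the difference between lines at 96 h, 0 to 0 for knockout against parental cells at 42 °C, 33 to 55 METTL3 windows over input and 12 to 28 for METTL3 and heat. Scaling ChIP libraries by the median ratio of all windows gave member medians of -0.18 for DGCR8 with FA, 0.84 with DSG and -2.09 for DGCR8 at 42 over 37 °C, and summing neighbouring windows gave -0.20 for Dicer. Among the alternative values of the main results, 156 stayed within their limits and 55 moved. These limits concern how many were called, or the size of a ChIP median, and not the direction of the RNA medians. The median over all members changed sign in 19 of 179 alternatives, over 7 comparisons, 13 of them by leaving out 1 library. Examples are the DGCR8 line at 96 h (-1.13 without 4OHT replicate 1), the difference between lines at 96 h (-0.79 without the same library) and knockout against parental cells at 42 °C (0.08 without parental replicate 1). The DGCR8, Drosha and Dicer ratios have 1 library each, and 54 of the 97 C/D genes passed the filter on low counts in the DGCR8 line.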
